A study of Mus musculus with 6 samples.

Results

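The 7 genes described here encode secreted cerebellins (Cbln1, Cbln2, Cbln3 and Cbln4), presynaptic neurexins (Nrxn2 and Nrxn3) and a delta-type glutamate receptor (Grid1). They were taken by name from a table of read counts for 23366 mouse genes; all 7 were listed, and all 7 were among the 15731 genes that passed the filter on low counts. The counts come from 6 RNA libraries of cerebellar granule neurons, prepared from C57BL/6 mice at postnatal day 7, cultured, and infected with lentivirus on day 1 in vitro. The control group (n = 3) received empty pLKO.1 vector, and the knockdown group (n = 3) received pLKO.1 carrying a short hairpin RNA against Kdm6b, which encodes an H3K27 demethylase; the labels print 1 hairpin sequence, so a second hairpin is not available as a check on the first. Cerebella of a whole litter were pooled for such a culture, and certain cultures received BDNF, but the labels do not name these cultures. Gene counts per library ranged from 50326298 to 88214069.

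In the cerebellar cortex, granule neurons send out parallel fibres that contact Purkinje cells. Cerebellin 1 is released from the parallel fibre and bridges neurexins on the presynaptic side, in the splice form that carries the insert at segment 4, to delta receptors on the postsynaptic side, which holds the synapse together. Cerebellin 3 is made by granule neurons, assembles with cerebellin 1 and needs it in order to be secreted. Cerebellins 2 and 4 are best known from other brain regions. Other neurexin and delta receptor genes were not analysed here.

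The results turn on reads that must be told apart between related genes, so coding stretches of Cbln1 with Cbln3 and of Nrxn2 with Nrxn3 are shown first. No word of 50 bases, the length of the reads, was shared between the annotated transcripts of any pair of the 7 genes. Below are 90 coding bases of Cbln1 and Cbln3 (GENCODE M21, build GRCm38, 5′ to 3′ on the coding strand), from coding positions 215 to 304 and 227 to 316, with the longest run they share, 21 bases, in capitals.
Cbln1: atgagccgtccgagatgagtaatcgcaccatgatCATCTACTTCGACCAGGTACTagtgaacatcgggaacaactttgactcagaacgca
Cbln3: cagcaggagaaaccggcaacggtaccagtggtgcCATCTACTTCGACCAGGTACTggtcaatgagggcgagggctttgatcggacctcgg
Between both neurexins the longest shared run of coding sequence was 23 bases, shown in the same way from coding positions 1297 to 1386 of Nrxn2 and 1159 to 1248 of Nrxn3.
Nrxn2: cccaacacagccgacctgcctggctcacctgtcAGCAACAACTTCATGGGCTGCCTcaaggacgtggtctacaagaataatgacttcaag
Nrxn3: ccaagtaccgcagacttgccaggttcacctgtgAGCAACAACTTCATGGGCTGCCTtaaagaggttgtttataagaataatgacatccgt
With other genes Cbln3 shared 91 of its 4865 words of 50 bases (1.87%), Grid1 75 of 5911 (1.27%), Nrxn2 756 of 14282 (5.29%) and Nrxn3 395 of 13008 (3.04%), while Cbln1, Cbln2 and Cbln4 shared 0. Exons of Nrxn2 overlap Gm14964 and Slc22a12 on the opposite strand, and exons of Nrxn3 overlap Gm37980 on the opposite strand. The exons of Grid1 overlap Gm27617 on the same strand. Whether the authors counted by strand is not stated in their labels, so the neurexin levels carry that uncertainty.

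Cbln1, Cbln3, Nrxn2 and Nrxn3 were the well-detected members, and Grid1, Cbln4 and Cbln2 were low. Levels are given as CPM, read counts relative to the TMM-scaled library size, and across genes as CPM per kilobase of annotated exon. Cbln1 stood 18th of 23366 genes by mean CPM. In controls the level per kilobase of all annotated exons ran from 318 to 495 for Cbln1, from 89.6 to 133 for Cbln3, from 37.99 to 44.3 for Nrxn2, from 13.3 to 15.9 for Nrxn3, from 1.57 to 3.14 for Grid1, from 0.151 to 0.793 for Cbln4 and from 0.0198 to 0.0484 for Cbln2. No 2 neighbours in this order overlapped in the control libraries. In the knockdown libraries the order of the first 5 was the same and their ranges did not overlap, whereas Cbln4 (0.0308 to 0.710 CPM per kilobase) spanned Cbln2 (0.0577 to 0.0910 CPM per kilobase). The order depends on the gene model. With the shortest annotated coding transcript of each gene in place of all its exons, the control range was 568 to 884 CPM per kilobase for Cbln1 (1699 bases), 303 to 450 for Cbln3 (1438 bases), 809.7 to 943 for Nrxn2 (648 bases) and 62.3 to 74.4 for Nrxn3 (2699 bases), which puts Nrxn2 above Cbln3 and within or above the range of Cbln1. In CPM without a length the control means were 1168 for Cbln1, 577 for Nrxn2 and 517 for Cbln3.

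Kdm6b itself was at 257, 146 and 170 CPM in control replicates 1 to 3 and at 88.8, 63.3 and 79.8 CPM in knockdown replicates 1 to 3. All 3 knockdown values lay below all 3 control values (log2 fold change −1.31, SE 0.25, adjusted p = 0.216 by the edgeR quasi-likelihood test with Benjamini-Hochberg adjustment). Libraries that share a replicate number deviated from their group means together, so each gene is given from a model of group alone and from one that adds the replicate number as a block, where Kdm6b passed (log2 fold change −1.28, SE 0.11, edgeR adjusted p = 0.0282). That Kdm6b call was lost when replicate pair 1 (−1.15, edgeR adjusted p = 0.0933) or pair 2 (−1.33, edgeR adjusted p = 0.0515) was left out. DESeq2 called Kdm6b lower with group alone (−1.32, DESeq2 adjusted p = 0.000247) and with the block (−1.30, DESeq2 adjusted p = 2.39e-19).

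None of the 7 genes passed an edgeR adjusted p of 0.05 with the block, where 2.58% of all genes tested were called higher and 5.4% lower. None passed with group alone either, a fit that called 0.00636% of genes tested (1 gene). At an unadjusted p under 0.05, 3 of the 7 passed with the block (Cbln1, Cbln3 and Grid1) and 0 with group alone, against 5361 and 1661 of the 15731 genes tested. DESeq2 with the block, an alternative added after the data were seen, called Cbln1 higher and Cbln3 and Grid1 lower, where it called 7.47% of genes higher and 14.4% lower. All 7 genes had the same sign of difference in all 3 replicate pairs, and so did 60.2% of all genes tested. One member, Cbln2, had groups that did not overlap in CPM, and 16.7% of all genes tested did. Cbln2 passed the filter through its knockdown libraries alone (3 of 3, against 0 of 3 controls). Its lack of overlap and its same sign in all 3 pairs follow from that and are no result.

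**Figure D1:**
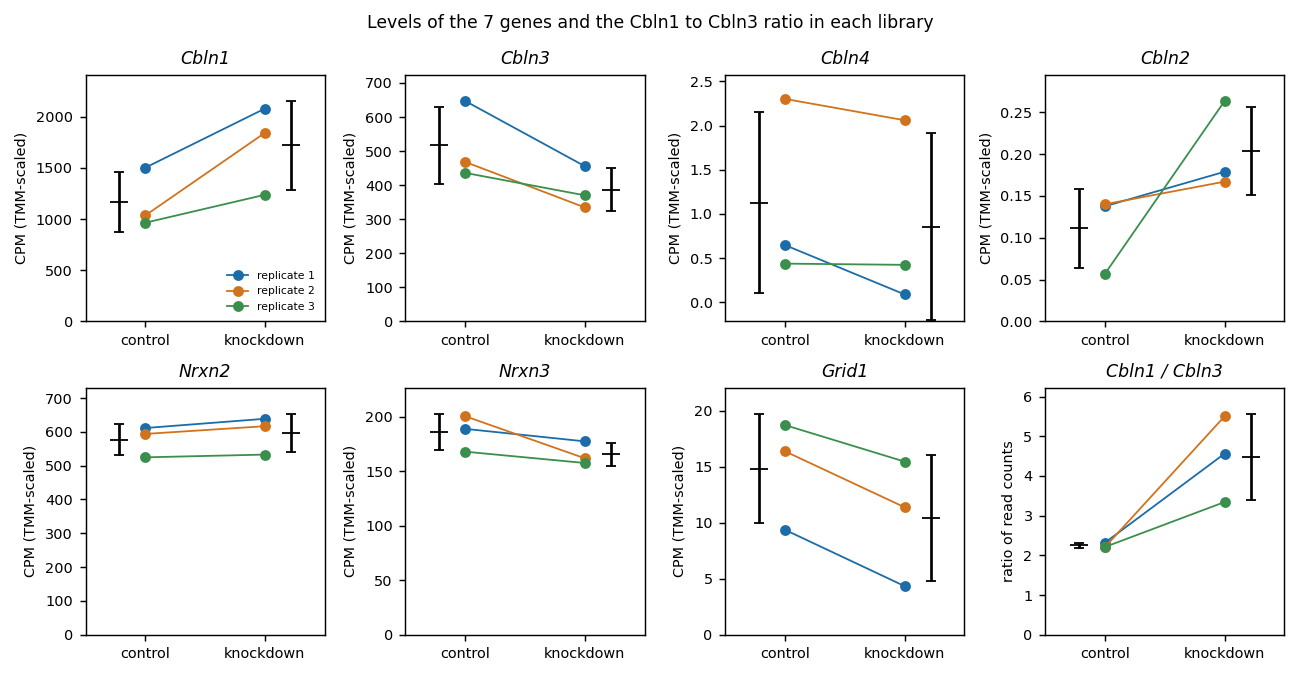
CPM of each of the 7 genes (TMM-scaled, linear axes) in the 6 libraries, with a line joining control and knockdown of the same replicate number and the group mean with SD (n = 3) in black; the last panel plots the ratio of Cbln1 to Cbln3 read counts. The 3 control ratios sit together between 2.21 and 2.32 and the 3 knockdown ratios spread from 3.34 to 5.50.

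Cbln1, the cerebellin that ties parallel fibres to Purkinje cells (chr8:87468405-87472609, GRCm38), was at 1502, 1036 and 965 CPM in control replicates 1 to 3 and at 2079.7, 1843 and 1238 CPM in knockdown replicates 1 to 3. Each knockdown library was above the control library of its own number, by 1.38, 1.78 and 1.28 times in pairs 1 to 3, but the groups overlapped, since control 1 exceeded knockdown 3. The means were 1168 ± 292 and 1720.0 ± 434 CPM (SD, n = 3). The fitted log2 difference was 0.56 (SE 0.28, edgeR adjusted p = 0.531) with group alone and 0.55 (SE 0.13, edgeR adjusted p = 0.0661) with the block. It passed under DESeq2 with the block (0.54, DESeq2 adjusted p = 0.00101) and when library totals alone scaled the blocked fit (0.62, edgeR adjusted p = 0.0366).

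Cbln3, the granule neuron partner of cerebellin 1 (chr14:55878913-55884392, GRCm38), lay the other way. It was at 647, 468 and 436 CPM in control replicates 1 to 3 and at 456, 335 and 370.2 CPM in knockdown replicates 1 to 3. Each knockdown library was below its paired control, at 0.704, 0.715 and 0.849 times its level, and the groups overlapped through knockdown 1. The means were 517 ± 114 and 387 ± 62.2 CPM (SD, n = 3), with a fitted log2 difference of −0.42 (SE 0.21, edgeR adjusted p = 0.529) with group alone and −0.41 (SE 0.09, edgeR adjusted p = 0.0606) with the block. DESeq2 with the block called it (−0.43, DESeq2 adjusted p = 0.00122).

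The ratio of Cbln1 to Cbln3 reads within a library needs no scaling between libraries. It was 2.32, 2.21 and 2.21 in control replicates 1 to 3 and 4.56, 5.50 and 3.34 in knockdown replicates 1 to 3. The controls were nearly alike and every knockdown library stood above every control. The means were 2.25 ± 0.0635 and 4.47 ± 1.08 (SD, n = 3), a ratio 1.99 times as high in the knockdown, and 1.97, 2.49 and 1.51 times as high in pairs 1 to 3. An exact two-sided permutation test of the log2 ratio gave p = 0.1, the smallest that 3 against 3 libraries allow. Like the other permutation tests below, it treated the 6 libraries as exchangeable and left out their shared replicate numbers. This ratio, and the one of Nrxn2 to Nrxn3 below, were chosen after the counts had been seen. A shift in this ratio shows unequal differences of both genes and not which one differed.

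Granule neuron markers were checked beside both genes. The 12 markers, all of which passed the filter, summed to between 3412 and 4922 CPM in controls and between 3163 and 4398 CPM in knockdowns. In the blocked fit 1 of 12 was called higher (Barhl1) and 2 lower (Etv1 and Grm4), against 2.58% and 5.4% of all genes tested. Among markers not called, Slc17a7, Gabrd and Grin2c were at 0.433, 0.351 and 0.485 times their control means, and Pax6 at 1.695 times. The sum holds markers that differed in both directions and is not a fixed scale. As a percentage of that sum Cbln1 was 30.5, 23.8 and 28.3 in control replicates 1 to 3 and 47.3, 44.9 and 39.1 in knockdown replicates 1 to 3. On this scale, added after the data were seen, the Cbln1 groups did not overlap (1.59 times higher, exact two-sided permutation p = 0.1, n = 3 per group). Cbln3 was 13.1%, 10.8% and 12.8% of the sum in controls and 10.4%, 8.16% and 11.7% in knockdowns, and these groups overlapped. In bulk RNA fewer cells of a type and less RNA per cell cannot be told apart.

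**Figure D2:**
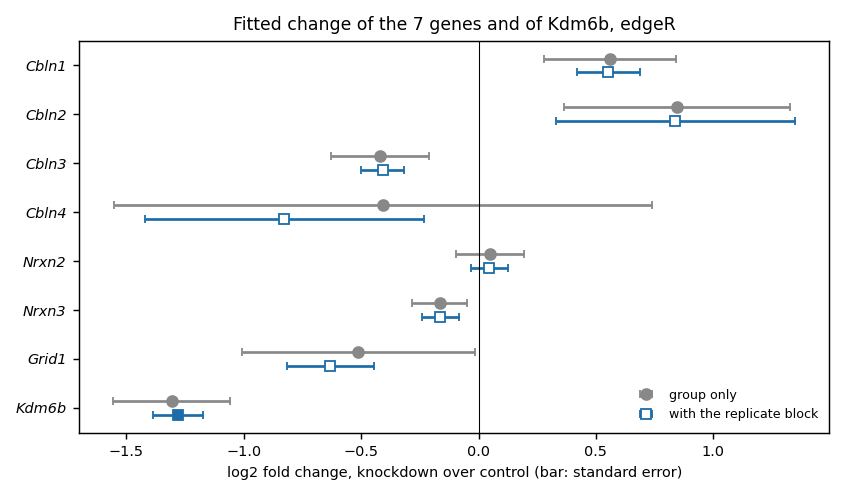
Fitted log2 difference between knockdown and control (positive where the knockdown is higher) with its standard error for the 7 genes and Kdm6b, from edgeR with group alone (grey circles) and with the replicate block (blue squares, filled only past an adjusted p of 0.05). Kdm6b is the only filled square; Cbln1 (0.55) and Cbln3 (−0.41) lie on opposite sides of 0 with narrower bars in the blocked fit.

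Cbln2 and Cbln4, the cerebellins of other brain regions, were close to the limit of detection. Cbln2 (chr18:86711110-86718283, GRCm38) had 10, 7 and 3 reads in control replicates 1 to 3 and 16, 9 and 18 reads in knockdown replicates 1 to 3. It passed the filter through the knockdown group, where 3 of 3 libraries reached the cutoff of 0.165 CPM against 0 of 3 controls, so its higher knockdown level is a description only. Summed over libraries the counts were 20 in controls (exact 95% Poisson interval 12.2 to 30.9) and 43 in knockdowns (31.1 to 57.9). These intervals cover counting error alone and are not scaled for depth. Each knockdown library held more gene counts than the control of its number, so the intervals cannot be compared directly. The fitted log2 difference of 0.84 (SE 0.51, edgeR adjusted p = 0.302 with the block) was smaller than 2 standard errors.

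Cbln4, whose protein is also known to bind netrin receptors (chr2:172036233-172043466, GRCm38), had 47, 115 and 23 reads in control replicates 1 to 3 and 8, 111 and 29 reads in knockdown replicates 1 to 3. In CPM these were 0.647, 2.30 and 0.438 for the controls, then 0.0894, 2.06 and 0.424 for the knockdowns. The replicate number separated its libraries more than the group did: both libraries of replicate 2 were high, and the one wide gap within a pair was that of replicate 1, where the knockdown was at 0.138 times the control. Pairs 2 and 3 stood at 0.895 and 0.968 times. The fitted log2 difference was −0.41 (SE 1.14, edgeR adjusted p = 0.918) with group alone and −0.83 (SE 0.59, edgeR adjusted p = 0.373) with the block. Without replicate pair 1 the blocked value was −0.11 (SE 0.31), and with group alone it turned positive without control replicate 2 (0.64) or knockdown replicate 1 (0.14).

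The summed level of 7 GABAergic interneuron markers was 280, 658 and 476 CPM in control replicates 1 to 3 and 176, 497 and 468 CPM in knockdown replicates 1 to 3, so it was highest in replicate 2 and lowest in replicate 1, as Cbln4 was in the knockdowns. One of the 7, Gad1, which makes GABA, was called lower in the blocked fit, where 5.4% of all genes tested were called lower. All 7 were detected in every library. Purkinje cell markers summed to 44.4, 91.6 and 124 CPM in the control libraries and 42.2, 75.4 and 109 CPM in the knockdown libraries, with 4 of 6 tested, 1 lower (Car8), and the defining marker Pcp2 at 0 to 2 reads. The part of these cells in the Cbln4 level was not tested.

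Neurexins are the presynaptic receptors for cerebellins. Within pairs Nrxn2 differed little, and Nrxn3 was lower in all 3, down to 0.808 times in pair 2. Nrxn2 (chr19:6418731-6544169, GRCm38) was at 611, 594 and 525 CPM in control replicates 1 to 3 and at 639, 617 and 533 CPM in knockdown replicates 1 to 3. The paired libraries lay within a few percent of each other, at 1.04, 1.04 and 1.02 times, and the groups overlapped. The means were 577 ± 45.8 and 596 ± 55.9 CPM (SD, n = 3; log2 difference 0.05, SE 0.08, edgeR adjusted p = 0.698 with the block, and 0.05, SE 0.14, edgeR adjusted p = 0.922 with group alone). With group alone its sign turned without control replicate 3 (−0.026) or knockdown replicate 1 (−0.0057).

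Nrxn3 (chr12:88722876-90334935, GRCm38) was at 189, 201 and 168 CPM in control replicates 1 to 3 and at 178, 162 and 158 CPM in knockdown replicates 1 to 3. All 3 pairs were lower, at 0.939, 0.808 and 0.938 times, and knockdown 1 overlapped the controls. The means were 186 ± 16.5 and 166 ± 10.4 CPM (SD, n = 3; log2 difference −0.16, SE 0.08, edgeR adjusted p = 0.210 with the block, and −0.17, SE 0.12, edgeR adjusted p = 0.638 with group alone). The ratio of Nrxn2 to Nrxn3 reads was 3.23, 2.96 and 3.12 in controls and 3.60, 3.81 and 3.38 in knockdowns, 1.16 times higher with no overlap (exact two-sided permutation p = 0.1, n = 3 per group). Reads were counted per gene, so the long and short forms of each neurexin and the insert at segment 4 were not resolved.

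The 3′ UTRs of the 7 genes were searched for words of 7 bases from the hairpin, on the transcript strand only. The hairpin is shown with its middle word in capitals, followed by stretches of the Nrxn3 3′ UTR (GENCODE M21). The first stretch holds that middle word, and the word itself starts at base 1128 of the UTR. The second holds GAGAACT, and this word starts at base 1654. GAGAACT faces bases 2 to 8 of a guide strand complementary to the printed hairpin strand.
Hairpin: gttcgttACAAGTGagaactc
Nrxn3, middle word: cacaaccACAAGTGgtcacac
Nrxn3, word facing the guide seed: ccgctttGAGAACTgttattt
Of the 7 genes Nrxn3 alone held either word in its longest annotated 3′ UTR, and it held each once. Among the 14028 tested genes with a 3′ UTR 12.5% held ACAAGTG and 14.2% held GAGAACT. The words do not overlap each other in the Nrxn3 UTR. A match is a string of letters and no sign of binding, and its part in the Nrxn3 level was not tested.

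Grid1, which encodes the delta receptor GluD1 (chr14:34820108-35583379, GRCm38), was at 9.36, 16.4 and 18.7 CPM in control replicates 1 to 3 and at 4.34, 11.4 and 15.5 CPM in knockdown replicates 1 to 3. Every pair was lower, at 0.463, 0.695 and 0.826 times, while the spread between replicate numbers was as wide as the difference between groups, and the groups overlapped. The means were 14.8 ± 4.87 and 10.4 ± 5.62 CPM (SD, n = 3). The log2 difference was −0.51 (SE 0.50, edgeR adjusted p = 0.737) with group alone and −0.63 (SE 0.18, edgeR adjusted p = 0.0910) with the block, and DESeq2 with the block called it (−0.65, DESeq2 adjusted p = 0.0186). Without knockdown replicate 1 the value with group alone was −0.14, and without pair 1 the blocked value was −0.40.

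Markers of non-neuronal cells were checked beside Grid1. The 6 astrocyte and Bergmann glia markers summed to 892, 1216 and 2548 CPM in control replicates 1 to 3 and to 431, 722 and 2608 CPM in knockdown replicates 1 to 3, with 1 of 6 called lower (Gja1); the sum was lower in the knockdown in pairs 1 and 2 and not in pair 3. The 6 pericyte and fibroblast markers summed to between 10922 and 20212 CPM in controls and between 3502 and 9348 CPM in knockdowns. This sum is mostly that of Col1a1, Col1a2 and Col3a1 (control means 6572, 4846 and 4411 CPM). In the blocked fit 5 of 6 were called lower, where 5.4% of all genes tested were called lower. Rgs5 was not called and had a positive log2 difference (0.42, SE 0.29). Neither list had a marker at 0 in any library. Grid1 and the astrocyte and pericyte sums were lowest in knockdown 1. So were the sums of GABAergic interneuron (176 CPM), Purkinje cell (42.2 CPM) and microglia markers (7.66 CPM), so this low point is not particular to glia and pericytes. The oligodendrocyte sum was lowest in knockdown 2, and the granule neuron and unipolar brush cell sums in knockdown 3. The part of these cells in the Grid1 level was not tested.

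**Figure D3:**
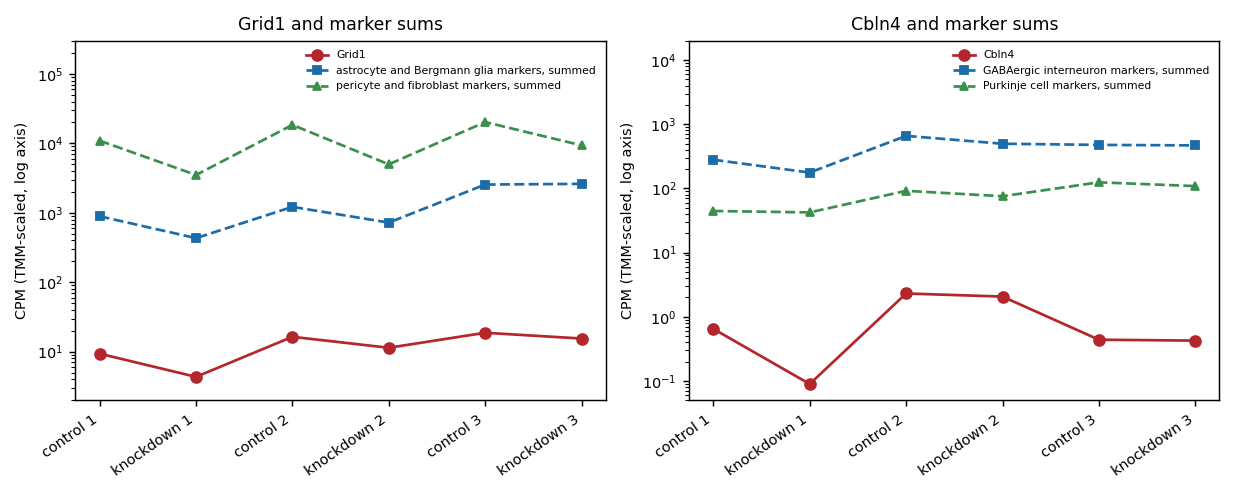
CPM (log axis) of Grid1 with the summed markers of astrocytes and Bergmann glia and of pericytes and fibroblasts (left), and of Cbln4 with the summed markers of GABAergic interneurons and Purkinje cells (right), in each of the 6 libraries ordered by replicate number. Grid1 is lowest in knockdown 1 (4.34 CPM) and Cbln4 highest in both replicate 2 libraries (2.30 and 2.06 CPM).

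For each of the 7 genes the 2 genes with the most alike profile over the 6 libraries were found by the root mean square distance of centred log2 CPM; genes averaging 5 CPM or more were searched. Nearest to Cbln1 were Sema4c, a transmembrane semaphorin (distance 0.05; 131, 88.1 and 81.8 CPM in the controls, 164, 161 and 106 CPM in the knockdown libraries), and Usp29, a ubiquitin protease (0.05). Nearest to Cbln3 were Acsl1, which activates long-chain fatty acids (0.08), and Ccdc59 (0.09). Grid1 was followed by Lpar4, a lysophosphatidic acid receptor (0.07), and the lysosomal protease gene Ctsh (0.08). Nrxn2 lay nearest to Zfp866 and Ociad1 (both 0.02) and Nrxn3 to Gemin2 (0.03) and Eaf1 (0.04), genes that varied little, as these neurexins did. The nearest genes to Cbln4 were Lgi2 (0.44) and Dpp10 (0.55) and to Cbln2 Gm12250 (0.22) and Fam174b (0.32), all at a greater distance. The distances are descriptions over 11780 or 11781 genes searched and 6 libraries that share replicate numbers.

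Genes for partners of these proteins were counted next, beside the shares over all genes. Of 45 partner genes with counts, 43 passed the filter; 2 were called higher and 2 lower with the block, against 2.58% and 5.4% of all genes tested, and 0 passed with group alone (edgeR). At an unadjusted p under 0.05, 19 of the 43 passed with the block and 5 with group alone, against 5361 and 1661 of 15731 genes. Their median log2 difference was 0.12 with the block, beside 0.02 for all genes tested. Without replicate pair 1 the blocked fit called 0 of 15639 genes and without pair 2 it called 13 higher and 40 lower of 15987, none of them a partner gene.

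The 19 tested extracellular partners of neurexins were neuroligins, LRRTMs, calsyntenins, neurexophilins, latrophilins and others. With the block 2 were called lower and 0 higher, against 5.4% and 2.58% of all genes tested, and the median was 0.16. Groups of 5 of the 19 did not overlap in CPM, against 16.7% of all genes tested. Of these Nxph1 and Lphn2 were lower. Lrrtm4 (1.07, edgeR adjusted p = 0.0810 with the block), Lrrtm1 (0.79, edgeR adjusted p = 0.0550) and Nlgn1 (0.56, edgeR adjusted p = 0.128) were higher. Nxph1, a secreted neurexin ligand, was at 6.73, 7.40 and 10.9 CPM in control replicates 1 to 3 and at 2.99, 3.93 and 6.67 CPM in knockdown replicates 1 to 3. Its groups did not overlap, and it fell by 0.93 on the log2 scale (SE 0.15, edgeR adjusted p = 0.0403 with the block). Lphn2, a latrophilin adhesion receptor, fell by 0.40 on the log2 scale (SE 0.07, edgeR adjusted p = 0.0470 with the block), with 103, 141 and 133 CPM in control replicates 1 to 3 and 85.6, 102 and 98.1 CPM in knockdown replicates 1 to 3.

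Of 3 RNA-binding proteins known to control the neurexin insert at segment 4, Khdrbs3 rose and the other two did not pass. It was at 25.2, 27.8 and 20.5 CPM in control replicates 1 to 3 and at 44.8, 59.8 and 28.1 CPM in knockdown replicates 1 to 3 (log2 fold change 0.80, SE 0.14, edgeR adjusted p = 0.0436 with the block). The lowest knockdown value was just above the highest control value. Its relative Khdrbs2 stood at a log2 difference of 0.64 (SE 0.15, edgeR adjusted p = 0.0606) and Khdrbs1 at −0.06 (SE 0.07). Of 9 cytoplasmic partners of neurexins 1 was called higher. This was Apba2, a Mint adaptor protein (152 ± 50.2 to 218 ± 70.0 CPM, SD, n = 3; 0.52, SE 0.09, edgeR adjusted p = 0.0427 with the block). These calls, 1 of 3 and 1 of 9, stand beside 2.58% of all genes tested called higher in that fit. At an unadjusted p under 0.05 with the block, 2 of the 3 and 5 of the 9 passed, against 5361 of 15731 genes tested.

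None of the other lists had a call in edgeR, with the block or with group alone. Of 3 tested C1q-like ligands and their receptor gene Bai3 the smallest p with the block was that of C1ql1, a ligand of climbing fibre synapses (log2 difference −0.28, SE 0.17). With group alone it was that of Bai3 (0.12, SE 0.14). In either fit 0 passed an unadjusted p of 0.05. Of 6 delta receptor scaffold genes Homer3 was first with the block (−0.34, SE 0.09, edgeR adjusted p = 0.0811). Magi2 came next and lay the other way (0.27, SE 0.08, edgeR adjusted p = 0.0877 with the block). These were the 2 at an unadjusted p under 0.05 in that fit, against 5361 of 15731 genes tested. With group alone Magi2 had the smallest p. Of both netrin receptors Neo1 was first (0.43, SE 0.11, edgeR adjusted p = 0.0678 with the block). C1ql4 and Nxph2 were too low to test.

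**Figure D4:**
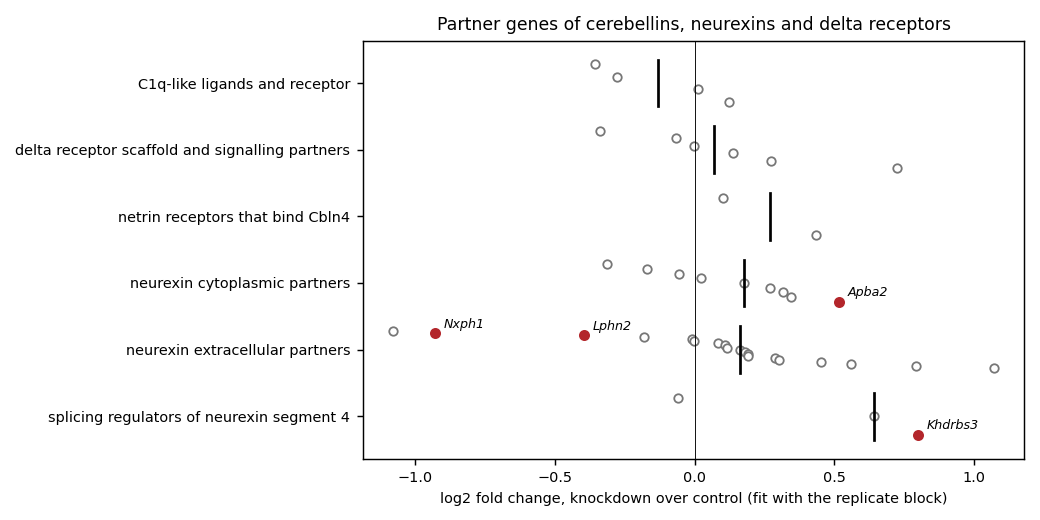
Log2 difference between knockdown and control (blocked edgeR fit) for 43 tested partner genes, grouped by list, with list medians as black bars and genes past an adjusted p of 0.05 in red. Nxph1 and Lphn2 lie below 0 and Apba2 and Khdrbs3 above it; all other genes are open circles.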

How the data were processed

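The authors deposited raw read counts per gene in 1 table, made from 6 stranded mRNA libraries with 50-base single-end reads, per the labels' protocols. The submitters' processing notes name Trimmomatic, TopHat2, HTSeq, edgeR, DESeq2 and build mm9; versions, gene annotation and strand setting are not stated there or in the labels. Tallies that name no gene were left out of library sizes (reads outside genes 12.1% to 15.0% of all counts, reads not uniquely aligned 16.0% to 19.3%).

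Columns were matched to samples by description. Low genes were removed by filterByExpr (at least 10 counts, total of 15), and the rest were scaled by TMM and tested over 15731 genes by the quasi-likelihood F test of edgeR 4.0.16 (R 4.3.3) with Benjamini-Hochberg adjustment at 0.05. Standard errors were obtained as |log2 fold change| divided by √F. The script was tested on simulated data. Members, lists, tests and the rule for named genes were chosen with earlier results of these data known. The rule named all members, Kdm6b, up to 3 called genes per list or else that with the smallest p, and the 2 nearest genes by profile (prior count 2). Khdrbs1, Khdrbs2 and the called markers were named beyond it.

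The labels do not say that replicates are separate cultures, and the p-values therefore reflect sample-to-sample spread that may be technical; libraries within a group differed far beyond counting noise (182 to 397 in chi-square per degree of freedom). Deviations from group means correlated across genes at 0.772, 0.709 and 0.701 for replicate numbers 1, 2 and 3, and at −0.532 to −0.135 between numbers, so the replicate block is given beside the group fit. Alternatives were other scalings (RLE, upper quartile, library totals), no filter or one at 5 CPM on average, limma-voom (limma 3.58.1), DESeq2 1.42.0, the block and leaving out libraries or pairs. Positions, lengths and transcripts are from GENCODE M21 (GRCm38), matched by name; coordinates are not those of the authors' build.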

Additional observations from a re-analysis of the deposited data

How the results depend on the processing

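Across 7 analysis choices combined with the replicate block (added after the data were seen) and 3 fits leaving out a pair, the count of called members with the block was 0 except for 3 under DESeq2 and 1 with library totals alone. With group alone it was 0 in all 13 alternatives. Over all alternatives the log2 difference of Cbln1 ran from 0.40 to 0.78, that of Cbln3 from −0.55 to −0.23 and that of Grid1 from −0.92 to −0.14, none changing sign. Cbln4 ran from −2.15 to 0.64 and Nrxn2 from −0.026 to 0.12 when single libraries were left out, and both changed sign in 2 such fits. The count of partner genes called was 0 with group alone and 4 with the replicate block, and in blocked fits 15 under DESeq2 (1175 higher and 2265 lower among all genes), 7 with library totals alone (723 and 553), 0 without replicate pair 1 (0 and 0) and 0 without replicate pair 2 (13 and 40). Library totals alone moved the median of all genes by 0.07. The Cbln1 to Cbln3 ratio was 1.76 to 2.24 times as high in the knockdown when 1 library was left out, and 1.95 times as a geometric mean of paired folds. Cbln2 and Cbln4 were dropped by the filter in fits at a mean of 5 CPM, and Cbln2 also in some without a knockdown library. Depth limits Cbln2 and Cbln4, where single libraries hold as few as 3 and 8 reads.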
